A study of Mus musculus with 6 samples.

Results

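The SLAM receptor family was examined in common myeloid progenitors of the mouse fetal liver, as the 7 genes Slamf1, Cd48, Cd244a, Ly9, Cd84, Slamf6 and Slamf7. Each was found by its Ensembl identifier among the 24815 genes listed per library, and all 7 had a row. All cells came from C57BL/6 embryos at E13.5 (embryonic day). The 3 wild-type libraries are called A, F and L and the 3 mutant libraries C, D and Q. The mutant, labelled -77-/-, lacks on both alleles an upstream enhancer of Gata2, the gene of a transcription factor of early blood progenitors. This is a germline deletion studied in embryos, so every cell of the embryo and its liver carried it. The sort took cells that were negative for the lineage markers and Sca-1, positive for CD34 and c-Kit and low for Fc receptor. The labels' protocol counts CD48, the protein of the member Cd48, among the markers that sorted cells lacked, while CD150, the protein of Slamf1, was not part of the gate.

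SLAM receptors are cell surface proteins of the immunoglobulin superfamily that sit side by side on chromosome 1. Most bind a copy of themselves on a neighbouring cell, whereas CD244 binds CD48. The cytoplasmic tails of most members recruit small SH2 adaptors of the SAP family, and CD48 has no tail and is held in the membrane by a lipid anchor. In blood formation, CD150, CD48 and CD244 are used to tell stem cells from progenitors, and CD150 also marks progenitors on the path to megakaryocytes and red cells.

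Slamf1 was lower in the mutant, and it was the 1 member of the family that passed the test. Expression is given as CPM, the reads of a gene relative to the library's total after TMM scaling, and as the deposited TPM, which also corrects for transcript length. Slamf1 stood at 2.86, 3.72 and 3.37 CPM in wild type A, F and L and at 0.551, 0.287 and 0.372 CPM in mutant C, D and Q. Every mutant library lay below every wild-type library, an arrangement seen in 11.4% of tested genes. The wild-type mean was 3.32 ± 0.431 CPM and the mutant mean 0.403 ± 0.135 CPM (SD, n = 3 each). The mutant level was 8.58-fold lower (log2 change -3.10, standard error 0.32, 95% interval -3.87 to -2.33, adjusted p = 0.037 by edgeR's quasi-likelihood test over all genes). In bulk samples, fewer cells that express a gene and less RNA per cell cannot be told apart.

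Slamf1 was a scarce transcript, which limits the precision of its values. The wild-type libraries held 72, 59 and 57 reads of it, and the mutant libraries 5, 6 and 12. The exact Poisson 95% intervals, which cover counting error only, ran from 2.24 to 4.80 CPM over the wild-type libraries and from 0.105 to 1.29 CPM over the mutant libraries. These intervals of the groups did not touch. Slamf1 passed the filter on low counts in the 3 wild-type libraries and in 0 mutant libraries. In a fit with no filter its log2 change was again -3.10 (adjusted p = 0.022). The call rested on the full set of 5 similar libraries: without wild type A, F or L, or without mutant D or Q, the adjusted p lay between 0.20 and 0.30 by edgeR. In each of those fits edgeR called 0 of all tested genes, and the log2 change of Slamf1 ran from -3.19 to -2.91. Without mutant C, the library that stood apart, the change was -3.29 (adjusted p = 0.0065).

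The RefSeq promoter tables of build GRCm38.p6, which is mm10, held 6 of the 7 members. The promoters of Slamf1 and of Cd48, the most abundant member, are shown because the deleted enhancer drives a GATA factor and these members lie at opposite ends of the family's changes. Capitals mark a GATA motif, searched on both strands in its 4 forms: the letters AGATAA, the same ending in G (written AGATAG), the form TGATAA that starts with T, and lastly the form TGATAG that starts with T and ends in G. Both windows run 5′ to 3′ on the plus strand, from 250 bases before the RefSeq gene start to 50 after it. They lie at chr1:171766882-171767181 for Slamf1 and chr1:171681742-171682041 for Cd48. For both genes the RefSeq start differs from the M21 gene start given further below, and the motif's distance is counted from the RefSeq start.
Slamf1: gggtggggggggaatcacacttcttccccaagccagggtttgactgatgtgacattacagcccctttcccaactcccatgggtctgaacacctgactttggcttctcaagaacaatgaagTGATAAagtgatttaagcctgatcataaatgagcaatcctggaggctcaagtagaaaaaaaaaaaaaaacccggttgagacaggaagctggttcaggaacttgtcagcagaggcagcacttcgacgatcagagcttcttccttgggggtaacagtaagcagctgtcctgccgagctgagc
Cd48: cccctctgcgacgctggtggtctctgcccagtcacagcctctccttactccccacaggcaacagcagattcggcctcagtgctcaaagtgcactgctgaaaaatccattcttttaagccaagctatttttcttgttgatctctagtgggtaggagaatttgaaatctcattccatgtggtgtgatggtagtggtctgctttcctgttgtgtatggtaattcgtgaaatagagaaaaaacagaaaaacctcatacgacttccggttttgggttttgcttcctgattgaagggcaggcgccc
The Slamf1 window held 1 such motif, TGATAA, which begins 130 bases before the start (171767002 to 171767007), and the windows of Cd48, Cd244a, Cd84, Slamf6 and Slamf7 held 0. A motif of this kind was present in 29.8% of 32851 promoter windows of the same length, so 1 window of 6 is no more than the share among all promoters. The match describes letters in the window and shows no binding.

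**Figure D1:**
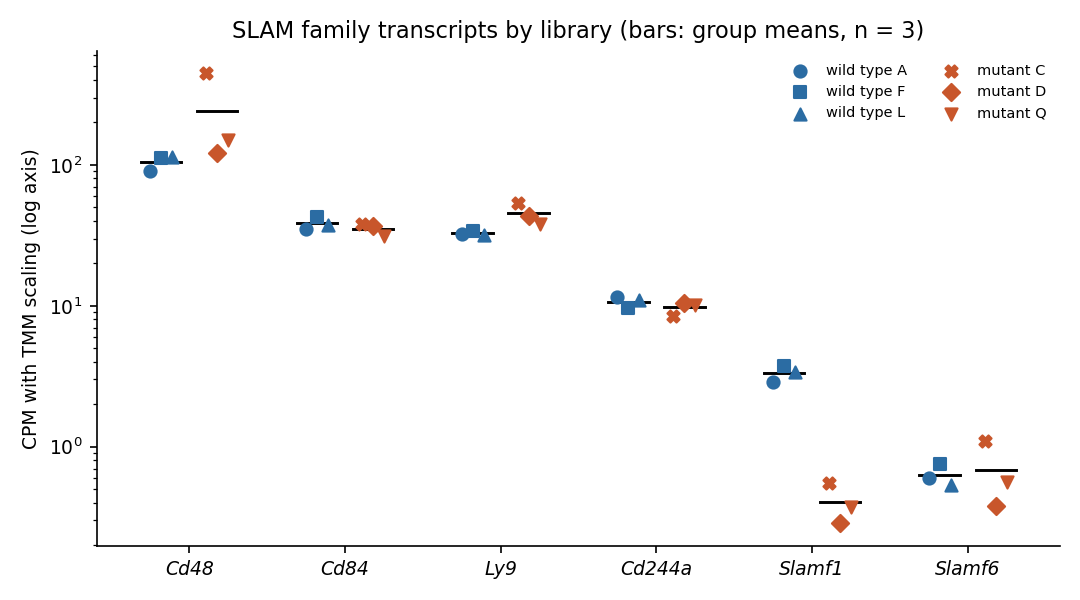
Expression of the 6 SLAM family members with more than 1 read, as CPM with TMM scaling on a log axis. Each point is 1 library and each bar a group mean (n = 3). The mutant points of Slamf1 (0.287 to 0.551 CPM) lie below all of its wild-type points (2.86 to 3.72 CPM), and mutant C is the high point of Cd48 at 446 CPM.

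Cd48, the ligand of CD244, was the most abundant member although the cells had been sorted for lack of its protein. It stood at 169, 185 and 186 TPM in wild type A, F and L and at 251, 201 and 220 TPM in mutant C, D and Q. By its wild-type mean it ranked 805 of the 24815 genes listed. Its CPM was 90.1, 112 and 114 in wild type A, F and L, against 446, 122 and 150 in mutant C, D and Q. The lowest mutant library exceeded the highest wild-type library on both scales, an arrangement seen in 10.6% of tested genes in CPM and 1.82% in TPM. The fitted log2 change was 1.18 (standard error 0.51, 95% interval -0.04 to 2.40), and it did not pass the test (adjusted p = 0.58 by edgeR).

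The size of the Cd48 difference depended on mutant C. Without that library the log2 change was 0.36 (95% interval 0.06 to 0.66, adjusted p = 0.40 by edgeR). Mutant C had relatively more reads in short genes. The ratio of mutant C to the other mutants decreased as gene length grew (Spearman's rho -0.75 over 12222 genes, which are no independent replicates). Cd48 is short, with a mean length of 1178 bases. Its log2 ratio of mutant C to mutants D and Q was 1.71, while 501 genes of similar length had a median of 1.12 and quartiles of 0.69 and 1.48. With a correction for the trend with length in each library, the log2 change of Cd48 was 0.51 (adjusted p = 0.53 by edgeR).

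CD244, also known as 2B4, is the receptor for CD48 and its gene is listed as Cd244a. Cd244a stood at 11.5, 9.65 and 10.9 CPM in wild type A, F and L and at 8.48, 10.5 and 10.2 CPM in mutant C, D and Q. The groups overlapped. The log2 change was -0.13 (95% interval -0.54 to 0.28, adjusted p = 0.67 by edgeR), which bounds the mutant level between 0.688 and 1.22 times that of wild type. Receptor and ligand were both expressed, with 5.63 ± 0.860 TPM of Cd244a beside 180 ± 9.78 TPM of Cd48 in wild type (SD, n = 3).

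Ly9, a receptor of lymphocytes and progenitors that binds itself, was at 32.5, 34.1 and 31.9 CPM in wild type A, F and L. Its mutant values were 54.0, 43.6 and 38.0 CPM in C, D and Q. All lay above the wild-type libraries, an arrangement seen in 10.6% of tested genes. The log2 change was 0.46 (standard error 0.17, 95% interval 0.04 to 0.88) and did not pass over all genes (adjusted p = 0.58 by edgeR). In TPM the groups overlapped, with 24.2 to 29.4 in wild type and 14.3, 33.6 and 26.4 in mutant C, D and Q. Without mutant C the log2 change was 0.30 (95% interval 0.11 to 0.50, adjusted p = 0.23 by edgeR).

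Cd84, a self-binding receptor of platelets, mast cells and other leukocytes, differed little between the groups. It stood at 35.3, 42.4 and 37.3 CPM in wild type A, F and L and at 38.0, 36.5 and 31.4 CPM in mutant C, D and Q. The groups overlapped, and the log2 change was -0.12 (95% interval -0.49 to 0.25, adjusted p = 0.67 by edgeR). The authors' table lists 4 Cd84 transcripts, of 1019 to 3434 bases by the GENCODE M21 annotation, and RSEM's gene length is their mean weighted by abundance. That length was 2944, 2446 and 2531 bases in wild type A, F and L and 1981, 2587 and 2572 bases in mutant C, D and Q. The shortest value belonged to mutant C and the longest to wild type A, and mutants D and Q lay within the wild-type range.

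Slamf6, a receptor of T, B and natural killer cells, was near the limit of detection. Its rows held 15, 12 and 9 reads in wild type A, F and L and 10, 8 and 18 reads in mutant C, D and Q. The CPM values were 0.596, 0.757 and 0.533 for wild type A, F and L, against 1.1, 0.382 and 0.558 for mutant C, D and Q, with overlapping groups. The log2 change was 0.00 with a 95% interval of -1.29 to 1.30 (adjusted p = 1 by edgeR), so a change of 2-fold either way was not detectable at this depth. In TPM all 3 mutant libraries lay below the wild-type libraries (0.290 to 0.390 against 0.410 to 0.590), as they did for 24.0% of tested genes.

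Slamf7, a receptor of natural killer, plasma and activated immune cells, was not tested. It had 0 reads in 5 libraries and 1 read in mutant D. A count of 0 allows up to 3 reads at a one-sided level of 95%, or 0.0930 to 0.330 CPM in those 5 libraries.

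**Figure D2:**
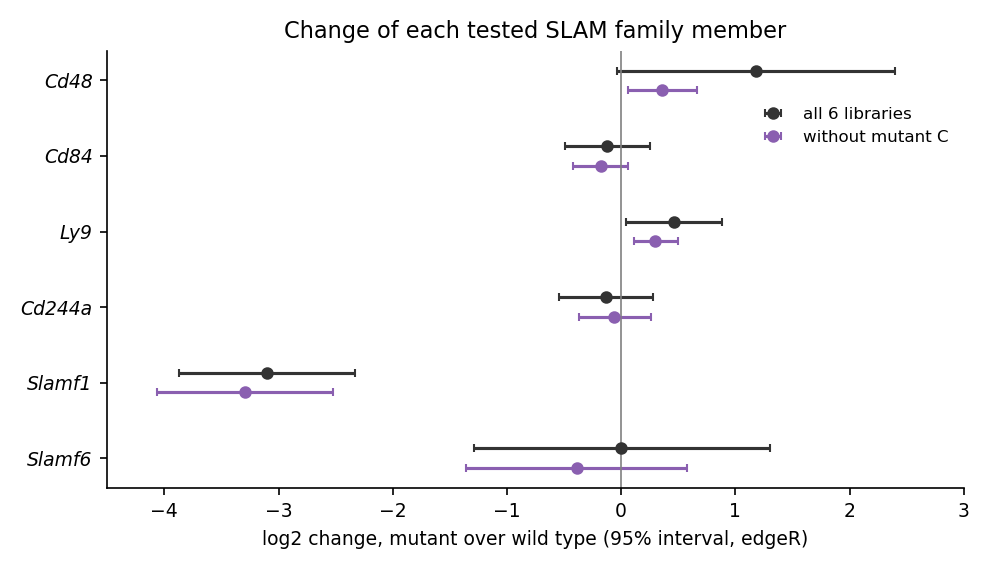
Log2 change of each tested member, mutant over wild type, with 95% intervals from edgeR for all 6 libraries and without mutant C. The interval of Slamf1 lies below -2.33 in the fit of all libraries, and the Cd48 estimate moves from 1.18 to 0.36 when mutant C is left out.

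Against the whole table, 1 of the 6 tested members fell and 0 rose. Over all 12222 tested genes edgeR called 0.155%, with 0.147% lower and 0.00818% higher in the mutant. DESeq2 and limma-voom also called Slamf1 and no other member. DESeq2 called 0.673% of its 18426 fitted genes (0.532% lower, 0.141% higher). With limma-voom 0.262% of 12222 genes were called (0.254% lower, 0.00818% higher). Some genes that DESeq2 fitted, Slamf7 among them, had no adjusted p and could not be called. The DESeq2 shares among genes with an adjusted p are therefore higher. Its totals for the lists below also count fitted genes. The median log2 change of the 6 tested members was -0.06, beside -0.02 over all genes. Of these 6, 2 had an unadjusted p under 0.05, Slamf1 and Ly9, beside 4.80% of all tested genes. Without mutant C, 1 of 6 members was called by edgeR, again Slamf1, beside 0.840% of all genes (0.761% lower, 0.0793% higher).

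The order of the members within a library was read from TPM, which corrects for transcript length. That correction does not remove the trend with gene length in mutant C, so members of unlike length compare less well there. For example, Cd244a (3760 bases) was at 1.46 TPM in mutant C and 4.58 to 6.58 TPM in the other libraries. In CPM it was at 8.48 there and 9.65 to 11.5 in the others. In wild type the order was Cd48, then Cd84 and Ly9, whose values overlapped, then Cd244a, Slamf1, Slamf6 and Slamf7. Apart from Cd84 and Ly9, neighbours in that order did not overlap across the wild-type libraries. Slamf1 was at 2.30, 2.65 and 2.36 TPM in wild type and at 0.130, 0.200 and 0.240 TPM in mutant C, D and Q. Its rank in the family was 5 in each wild-type library and 6 in each mutant library, where Slamf6 ranked above it. The ratio of Slamf1 to Slamf6 was 4.34, 4.49 and 5.76 in wild type A, F and L and 0.448, 0.667 and 0.615 in mutant C, D and Q. The mutant order rests on 5 reads of Slamf1 against 10 of Slamf6 in C, 6 against 8 in D and 12 against 18 in Q. The Poisson intervals of these counts overlapped in each mutant library, so the order of the pair in the mutant is within counting error.

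Cd48 alone made up 72.3%, 73.2% and 75.6% of the summed family TPM in wild type A, F and L and 89.7%, 75.2% and 80.8% in mutant C, D and Q. The Slamf1 share was 0.985%, 1.05% and 0.958% in wild type A, F and L, against 0.0465%, 0.0747% and 0.0880% in mutant C, D and Q. The ratio of Cd48 to Slamf1, the pair of surface markers read together when stem cells are sorted, was 69.8 to 78.9 in wild type and 1928, 1007 and 918 in mutant C, D and Q. The summed TPM of all members was 233 to 253 in wild type and 268 to 279 in the mutant. Most of this sum was Cd48, which did not pass the test. Among single tested genes, the mutant TPM lay above wild type without overlap in 1.82% and below it in 24.0%. Mutant C had relatively more reads in short genes, and Cd48 (1178 bases) is shorter than Slamf1 (2693 bases). The part of this in the share and ratio of mutant C was not tested.

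**Figure D3:**
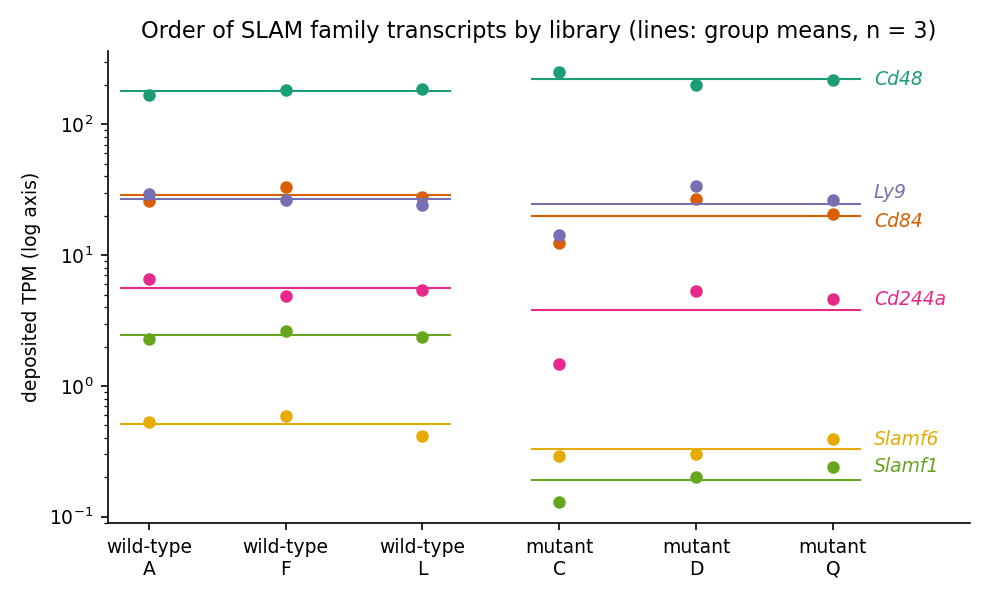
Deposited TPM of 6 members in each library on a log axis, with lines at the group means (n = 3). Slamf1 lies above Slamf6 in each wild-type library (2.30 to 2.65 TPM) and below it in each mutant library (0.130 to 0.240 TPM), where their order is within counting error.

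The change of Slamf1 was compared with that of each other tested member through their log2 ratio of CPM in every library. Slamf1 relative to Cd84 averaged -3.53 in wild type and -6.50 in the mutant, a difference of -2.97. Relative to Cd244a the difference was -2.95, to Slamf6 -3.07, to Ly9 -3.53 and to Cd48 -4.03. In all 5 pairs the mutant ratios lay below the wild-type ratios in every library. The pairs share Slamf1, so they restate its fall and are no separate support. The exact permutation test (two-sided) gave p = 0.10 for each pair, and 0.10 after adjustment over the 5 pairs, which is the smallest p that 3 libraries against 3 allow, so the test could not pass the threshold.

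The members form a cluster on chromosome 1 that spans 394 kb of mm10, from 171559193 to 171953170. Cd244a begins the cluster on the plus strand (171559193 to 171609746), followed by Ly9 (171588624 to 171607410) and Slamf7 (171632403 to 171653035) on the minus strand. Cd48 (171682009 to 171705258), Slamf1 (171767127 to 171801184), Cd84 (171839697 to 171890718) and Slamf6 (171917515 to 171953170) follow on the plus strand. The M21 gene model of Cd244a runs across Ly9, but the transcript in the authors' table ends at 171585318 and shares 0 exon bases with Ly9. The gene starts of Cd48 and Cd84 lie 85.1 kb before and 72.6 kb after that of Slamf1. These neighbours on either side of Slamf1 had log2 changes of 1.18 and -0.12, and neither passed the test.

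Genes around the cluster did not pass the test either. Of 41 other listed genes within 500 kb of the cluster, 26 were tested. By edgeR 0 of them were called, beside 0.155% of all tested genes. An unadjusted p under 0.05 was found for 1, beside 4.80% of all tested genes. Both counts are near those shares and mark nothing particular to this region. Their median log2 change was 0.23, beside -0.02 over all genes, and 0.01 without mutant C. By limma-voom 0 were called, beside 0.262% of all genes. DESeq2 called 1 of 38 higher, beside 0.141% of all genes. It was the apolipoprotein gene Apoa2, which is also on the hepatoblast marker list. The nearest tested genes outside the cluster were Alyref2, an mRNA export factor gene (log2 change 0.60, 95% interval -0.41 to 1.61), and Vangl2, a planar cell polarity gene (-0.43, 95% interval -1.49 to 0.63).

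**Figure D4:**
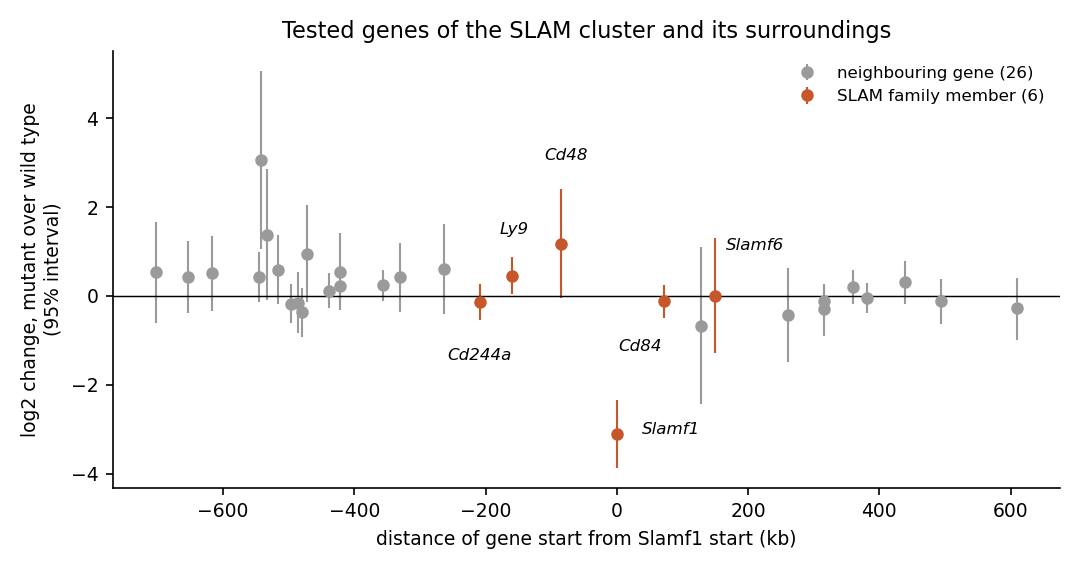
Log2 change with 95% intervals for the tested genes of the cluster and its surroundings against the distance of the gene start from that of Slamf1, in kb. Slamf1, at distance 0, has the lowest value, -3.10, and the point near 3.06 is Apoa2.

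Relatives of the family outside the cluster were scarce. Slamf8, a receptor of macrophages, lies at 172581758 to 172590568 on the same chromosome and had 0.636, 0.946 and 0.474 CPM in wild type A, F and L and 0.991, 0.956 and 0.651 CPM in mutant C, D and Q. Slamf9 had 2 to 5 reads in every library and was not tested. Cd2, a further receptor for CD48 in mice, had 0 reads in all 6 libraries, which allows up to 0.0930 to 0.330 CPM. The gene of the T and natural killer cell adaptor SAP, Sh2d1a, had 0 reads in 5 libraries and 2 in mutant Q.

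The related adaptor EAT-2 was detected. The row named Sh2d1b2 also lists a transcript that the M21 annotation gives to its near-identical neighbour Sh2d1b1, so the value covers both and their split is uncertain. It stood at 2.27, 2.65 and 4.20 CPM in wild type A, F and L and at 6.83, 7.08 and 2.48 CPM in mutant C, D and Q. Mutants C and D were above the wild-type libraries and mutant Q lay among them. The log2 change was 0.83 and did not pass the test (adjusted p = 0.58 by edgeR).

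Kinases, phosphatases and other partners of SLAM receptors were broadly expressed and gave no call. Of 39 listed relatives, adaptors and partners, 36 were tested by edgeR. The threshold was passed by 0, beside 0.155% of all tested genes. An unadjusted p under 0.05 was found for 1, beside 4.80% of all tested genes. DESeq2 called 0 of 38, beside 0.673% of all genes, and limma-voom 0 of 36, beside 0.262%. These counts are near the shares over all genes and mark nothing particular to this list. The median log2 change was -0.10, beside -0.02 over all genes. The 3 most abundant were Ptpn6, the phosphatase SHP-1 (log2 change 0.35), Grb2, an adaptor of receptor signalling (-0.16), and Ap2m1, an endocytic adaptor subunit (0.37). Prkcq, the protein kinase C theta gene, was at 26.6, 27.1 and 24.9 CPM in wild type A, F and L and at 12.9, 16.9 and 17.0 CPM in mutant C, D and Q. Its groups did not overlap, as in 11.4% of tested genes with the mutant lower. Its log2 change was -0.75 (adjusted p = 0.40 by edgeR), and without mutant C it passed the threshold, as 0.761% of genes did in that direction.

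Of 17 other tested surface genes used to divide blood progenitors, 1 fell and 0 rose by edgeR, beside 0.147% and 0.00818% of all tested genes. The median log2 change was 0.06. Of these 17, Kit, Cd34, Ly6a, Fcgr3, Fcgr2b and Itga2b also encode markers of the gate (c-Kit, CD34, Sca-1, Fc receptor and CD41). The part of the sort in their values was not tested. The fall was Itga2b, the integrin chain CD41 of megakaryocytes, which is among these gate markers. It went from 37.4, 26.2 and 30.7 CPM in wild type A, F and L to 7.82, 7.94 and 8.12 CPM in mutant C, D and Q (log2 change -1.98, adjusted p = 0.032). Its integrin partner Itgb3, with 24.6 to 29.3 CPM in wild type against 8.92, 17.5 and 15.6 CPM in mutant C, D and Q, had a log2 change of -0.93 (adjusted p = 0.58 by edgeR) and passed without mutant C. Itga2, a collagen receptor chain, had a log2 change of -1.43 (adjusted p = 0.56 by edgeR). The most abundant were Cd34 (log2 change 0.44), the stem cell factor receptor gene Kit (-0.57) and the cytokine receptor gene Flt3 (0.06), none of which passed. Kit was at 317 to 337 CPM in wild type, at 102 CPM in mutant C and at 292 and 270 CPM in the other mutants.

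The genes whose pattern was most like that of Slamf1 were found by Pearson's correlation of log2 CPM over the 6 libraries, among 10478 genes with a mean of at least 50 counts. They were Hemgn, which encodes the nuclear protein hemogen (r = 0.995), Slc14a1, the urea transporter of red cells (0.990), Cpa3, the mast cell carboxypeptidase (0.990), Gna14, a G protein alpha subunit (0.989), and Car1, the red cell carbonic anhydrase (0.988). Without mutant C the r of these genes with Slamf1 was 0.990 to 0.998 over 5 libraries, which had also served to choose them. These correlations describe mainly the step between the genotypes, and the points share library and depth. Hemgn fell from 14.0, 15.4 and 14.7 CPM to 5.95, 5.26 and 5.05 CPM, and Slc14a1 and Gna14 also fell. Cpa3, which did not pass the test, was at 59.6, 69.4 and 74.8 CPM in wild type A, F and L, against 11.0, 3.49 and 3.97 CPM in mutant C, D and Q. Car1 did not pass either (adjusted p = 0.054 by edgeR).

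**Figure D5:**
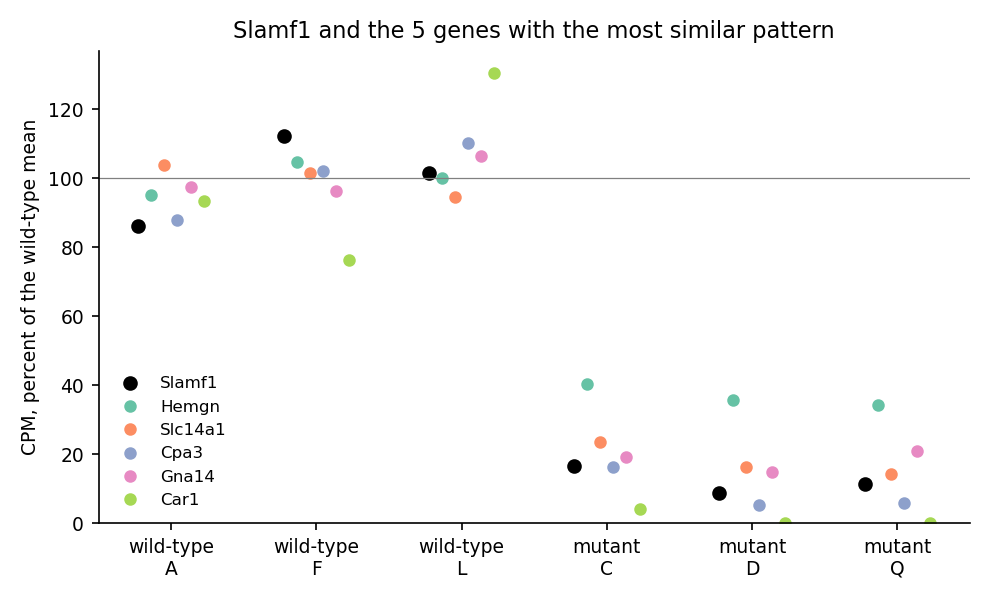
CPM of Slamf1 and of the 5 genes most like it, as a percent of each gene's wild-type mean, in each library. All 6 genes are lower in mutants C, D and Q than in the wild-type libraries. The 5 were chosen for likeness to Slamf1 over these same libraries, so their lower mutant values follow from the choice. Car1 has 0 CPM in mutants D and Q.

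The patterns most like those of Cd48 and Ly9 did not include other members. Cd48 was closest to Rps27l, Usmg5, Itpa, Eif2s2 and Nip7 (r of at least 0.999 over 6 libraries and 0.996 to 0.998 without mutant C). All 5 shared the high value in mutant C, as in Rps27l with 986 CPM there and 128 to 244 CPM in the other libraries. Ly9 was closest to Csad, Cog2, Slfn2, Galnt12 and Nostrin (r = 0.988 to 0.994, and 0.966 to 0.996 without mutant C). None of these 10 genes passed the test.

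The libraries carried the markers of the labelled cell type and traces of other cells. All 10 progenitor markers were detected, with a summed level of 3077 to 4428 TPM in wild type and 1014, 3420 and 3011 TPM in mutant C, D and Q. Correlations of log2 CPM were 0.880 to 0.923 between mutant C and each other library and 0.974 to 0.989 among the rest. The enhancer's target Gata2 went from 78.6, 57.4 and 63.9 CPM in wild type A, F and L to 8.92, 16.5 and 17.8 CPM in mutant C, D and Q, with an adjusted p of 0.068 by edgeR and, without mutant C, of 0.0019.

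For 5 of the 12 marker lists the summed TPM of all mutant libraries lay below the wild-type range, as did single genes in 24.0% of cases. These were the lists for megakaryocytes, mast cells and basophils, T cells, natural killer cells and endothelium. The 11 megakaryocyte markers summed to 102 to 118 TPM in wild type and 17.3 to 54.4 TPM in the mutant, and 3 of 8 tested fell (Itga2b, Gp5 and Treml1), beside 0.147% of all genes by edgeR. The 12 mast cell and basophil markers summed to 263 to 323 TPM and 24.7 to 121 TPM, with Tpsb2, Cma1 and Mcpt4 at 0 throughout and 0 of 7 called by edgeR (5 at an unadjusted p under 0.05, 5 of 9 called lower by DESeq2, beside 0.532% of all genes, and 3 of 7 by limma-voom, beside 0.254%). The 12 erythroid markers summed to 1322 to 2615 TPM in wild type and to 2241, 967 and 833 TPM in mutant C, D and Q, so that only mutant C lay within the wild-type range. By edgeR 1 of the 12 fell, the erythropoietin receptor gene Epor, beside 0.147% of all genes. An unadjusted p under 0.05 was found for 7 of the 12, beside 4.80% of all genes. DESeq2 called 5 of them lower, beside 0.532% of all genes, and limma-voom 3, beside 0.254%. Without mutant C, edgeR called 5 lower, beside 0.761% of all genes. In that fit all 12 had log2 changes below 0 and an unadjusted p under 0.05. Over all 12614 genes of that fit, 6520 were below 0 and 1306 had an unadjusted p under 0.05. The part of these cells in the Slamf1 result was not tested.

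Markers of lymphocytes, which carry several SLAM receptors, were low. The 9 T cell markers summed to 5.31 to 7.68 TPM in wild type and 1.26 to 4.46 TPM in the mutant, with Cd3e at 0 in every library. Only 3 of them were tested by edgeR, with log2 changes above 0 for 1 and below for 2 (median -0.38). Of the T cell markers 0 were called by edgeR (1 at an unadjusted p under 0.05), DESeq2 or limma-voom. The 10 natural killer cell markers summed to 36.6 to 43.6 TPM and 31.5 to 35.2 TPM, with Ncr1 and Gzmb at 0, and Nkg7 held most of the sum. In the count fit all 4 tested natural killer markers had log2 changes above 0 (median 0.56), and 0 were called by edgeR (1 at an unadjusted p under 0.05), DESeq2 or limma-voom. The 8 B cell markers summed to 46.0 to 57.9 TPM and 47.6 to 61.0 TPM, nearly all of it from Cd79b. The 7 endothelial markers were at 47.4 to 52.2 TPM and 14.3 to 41.6 TPM. Of 6 tested, 3 had log2 changes above 0 and 3 below (median -0.16), and 0 were called by edgeR (2 at an unadjusted p under 0.05), DESeq2 or limma-voom. On the log2(TPM + 1) scale the median log2 change over all genes was -0.50 with mutant C in the fit. A lower summed TPM therefore need not be a lower count. How much of that shift came from mutant C was not tested.

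Sums of the remaining lists overlapped between the groups. They were 90.5 to 116 TPM in wild type and 40.6 to 121 TPM in the mutant for 11 macrophage markers, with Vsig4 at 0. For 10 dendritic cell markers they were 285 to 315 TPM and 166 to 347 TPM, and for 12 neutrophil and eosinophil markers 722 to 986 TPM and 716 to 792 TPM. The 12 hepatoblast markers summed to 94.9 to 188 TPM in wild type and 120, 150 and 608 TPM in mutant C, D and Q, with a median log2 change of 2.69. Of these 12, 11 had log2 changes above 0 and 7 an unadjusted p under 0.05 by edgeR, which 4.80% of all tested genes had. None was called by edgeR or limma-voom, and DESeq2 called 4 higher, beside 0.141% of all genes. The part of liver cell RNA in the values of the SLAM members was not tested.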

How the data were processed

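RNA sequencing of 6 libraries was analysed, 3 per genotype as the labels give them. RSEM 1.2.18 with Bowtie 1.1.1, CASAVA 1.8.2 and the build mm10 are listed in the submitters' processing notes. Annotation release, strandedness and read layout: not given in the sources used. The deposited expected counts are RSEM's unnormalized reads per gene, and the deposited TPM values are scaled for length to the same total per library, both per the file headers. Depth ran from 14473913 to 30596279 expected counts. Counts were rounded, filtered with filterByExpr (minimum count 10, 12222 genes kept), scaled by TMM and tested with edgeR 4.0.16 (quasi-likelihood F test, Benjamini-Hochberg adjustment over all tested genes, threshold 0.05). Standard errors came from the log2 change over the root of F. Alternatives used DESeq2 1.42.0, limma 3.58.1, other scaling and filters, TPM, a loess offset on gene length, and each library left out. The code was tested on simulated data. Names and positions came from GENCODE M21.

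The members and gene lists were chosen with earlier results of these data known. Named genes are the members, their relatives and adaptors, list members that passed the threshold, had an unadjusted p under 0.05 or were among the 3 most abundant, the nearest tested neighbours of the cluster, and the 5 genes most like Slamf1, Cd48 and Ly9. Itgb3, Apoa2 and the marker genes at 0 follow from counts given beside them. The labels do not say whether libraries come from separate embryos, so the p-values reflect the spread among these libraries alone, which may be technical. No 2 libraries of a group agreed within counting noise (smallest chi-square per gene 9.70).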

Additional observations from a re-analysis of the deposited data

How the results depend on the processing

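Slamf1 kept its direction in all 14 alternatives and its call in 8 of them. It lost the call with log2(TPM + 0.1) (log2 change -3.14, adjusted p = 0.056) and without each library other than mutant C, and its log2 change ran from -3.29 to -2.91 over the fits that left out 1 library. With log2(TPM + 1) it was -1.53, on a scale where the median of all genes was -0.50 (and -0.63 with log2(TPM + 0.1)). Cd48 and Cd84 kept their direction throughout, with Cd48 from 0.36 to 1.5 over the fits without 1 library. Changes of members that were not called turned sign for Cd244a with the length offset (0.07), for Ly9 with log2(TPM + 1) and log2(TPM + 0.1) (-0.18 and -0.19), and for Slamf6 with limma-voom (-0.11), with quality weights (-0.29), with log2(TPM + 1) and log2(TPM + 0.1) (-0.19 and -0.51), with the length offset (-0.02) and across the fits without 1 library (-0.39 to 0.31). The cause was not tested.

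Counts of calls moved more. Members called numbered 0 with log2(TPM + 0.1) and 0 to 1 without 1 library. Signalling genes called numbered 1 with quality weights (Prkcq) and 0 to 1 without 1 library. Progenitor surface genes called numbered 4 with quality weights, 0 on either TPM scale and 0 to 2 without 1 library, and cluster neighbours 1 by DESeq2. Over all genes, edgeR called 19, DESeq2 124 and limma-voom 32. The count was 357 with quality weights, 36 with no filter, 11 with log2(TPM + 0.1) and 54 with the length offset. It was 106 without mutant C and 0 in each fit that left out 1 of the other libraries. No paired analysis was possible because the replicate letters differ between the groups.

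Depth limits Slamf1, Slamf6 and Slamf7, which had at most 72, 18 and 1 reads in a library.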
